A study of Mus musculus with 9 samples.

Results

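The comparison described here set mouse bone marrow-derived macrophages (BMDMs) that had been stimulated in the presence of Annexin A5 (AnxA5) against BMDMs that had been left unstimulated, and asked what of the resting expression programme was kept, lost or newly expressed. Its members were all genes that reached 1 FPKM in 3 or more of their 6 libraries, and this gave 11530 of the 55335 genes in the deposited table. FPKM divide a gene's fragments by its transcript length and by the depth of the library, so levels can be compared between genes, while comparisons between libraries also depend on how the libraries are scaled.

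The M+AnxA5 group received 1 µg/mL LPS, 30 ng/mL IFN-γ and recombinant AnxA5 for 6 hours, the Model group received LPS and IFN-γ alone, and the Control group received culture medium. The AnxA5 dose of these libraries is not given in the labels. Each group had 3 libraries, and all cells came from wild-type male C57BL/6 mice aged 4 to 6 weeks. No group with AnxA5 alone is analysed here, so the M+AnxA5 and Control groups differed by 3 agents at once, and the part of each cannot be told apart in this comparison. The Model libraries are used only to show where a level with AnxA5 differed from that with stimulation alone. The labels do not say whether the libraries of a group came from separate mice or cultures, so p-values measure only how far these libraries spread, and that spread may be technical.

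BMDMs are grown from marrow progenitors with the growth factor M-CSF, and at rest they clear debris, take up and store lipids, and go on dividing. LPS, a component of the bacterial outer membrane, is sensed by TLR4 and acts on genes through NF-κB and interferon regulatory factors. IFN-γ, a lymphocyte cytokine, switches on genes of antigen presentation and cell-autonomous defence. AnxA5 is a calcium-dependent protein that binds phosphatidylserine on membranes.

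The summed FPKM lay between 294055 and 301199 in the M+AnxA5 libraries and between 305611 and 322529 in the Control libraries. The deposited values hold no counts, and the depth estimated from their smallest steps was 26.1M to 36.4M fragments in the M+AnxA5 and 27.3M to 30M in the Control libraries. Between 9969 and 10172 genes reached 1 FPKM in an M+AnxA5 library, against 11348 to 11476 genes in a Control library. The listed macrophage markers were present in every library and summed to 6978 to 7835 FPKM with AnxA5 and 13452 to 14518 FPKM in Control, most of it from Lyz2. Markers of T cells, B cells, NK cells and dendritic cells were at or near 0, with no list summing to more than 0.732 FPKM in an M+AnxA5 library or 1.895 FPKM in a Control library. Fibroblast and stroma markers, led by Col1a1, summed to 60.5 to 108 FPKM with AnxA5 and 93.3 to 156 FPKM in Control. Neutrophil markers summed to 16.1 to 19.2 FPKM with AnxA5 and 21.2 to 25.9 FPKM in Control. Osteoclast markers, led by Acp5, summed to 65.3 to 68.3 FPKM with AnxA5 and 40.3 to 50.7 FPKM in Control. Endothelial markers summed to 7.35 to 8.45 FPKM with AnxA5, most of it from Kdr, and 3.15 to 3.48 FPKM in Control, and those of mast cells and basophils to 1.58 to 2.47 FPKM with AnxA5 and 0.409 to 0.889 FPKM in Control. The part of these marker genes in the results was not tested. The library numbered 2 had the highest share of its summed FPKM on rRNA fragment genes in every group, at 3.59% with AnxA5, 3.16% in Model and 7.47% in Control, against 0.53% to 2.85% in the other libraries. In bulk libraries such as these, fewer cells of a type and less RNA per cell cannot be told apart.

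On the scale of the deposited FPKM, most of the expressed genome differed between the groups. Of the 11530 genes, 1862 (16.1%) were higher and 7112 (61.7%) lower with AnxA5, at a fold over 1.2 and an adjusted p under 0.05 by limma on log2(FPKM + 1), while 2556 met neither call. Over all 11657 genes tested in the series, 77.5% were called, 16.4% as higher and 61.1% as lower, a background that the members, which make up nearly all genes tested, follow by construction. A list of genes with shares near these stands at the background, and nothing particular to it is read from its counts. Increases outnumbered decreases only among large changes. A fold over 4 was passed by 420 genes that were higher and 276 that were lower, and a fold over 2 by 971 that were higher and 1920 that were lower.

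The size of the median change rested on how libraries were scaled, while its direction was lower under all 4 scalings. The median log2 fold change over the members was -0.47 on the deposited FPKM, -0.41 after TPM scaling, -0.27 after upper-quartile scaling and -0.13 after quantile normalization. Upper-quartile scaling gave 2457 genes higher and 5496 lower, and quantile normalization 2808 higher and 4434 lower. Of the 1862 genes called higher, 1805 were called higher under all 3 other scalings, while 4082 of the 7112 genes called lower stayed so. None of these calls turned round. The libraries of both groups did not overlap for 9735 members, against 84% of all genes tested. Each log2 fold change stands beside this median of -0.47 on the deposited scale. FPKM are also relative to the total of a library. The genes called higher took 44.0% of the summed FPKM with AnxA5 and 13.9% in Control, and those called lower took 35.9% and 63.5%. How far the rise of the former lowers the values of other genes was not tested.

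**Figure D1:**
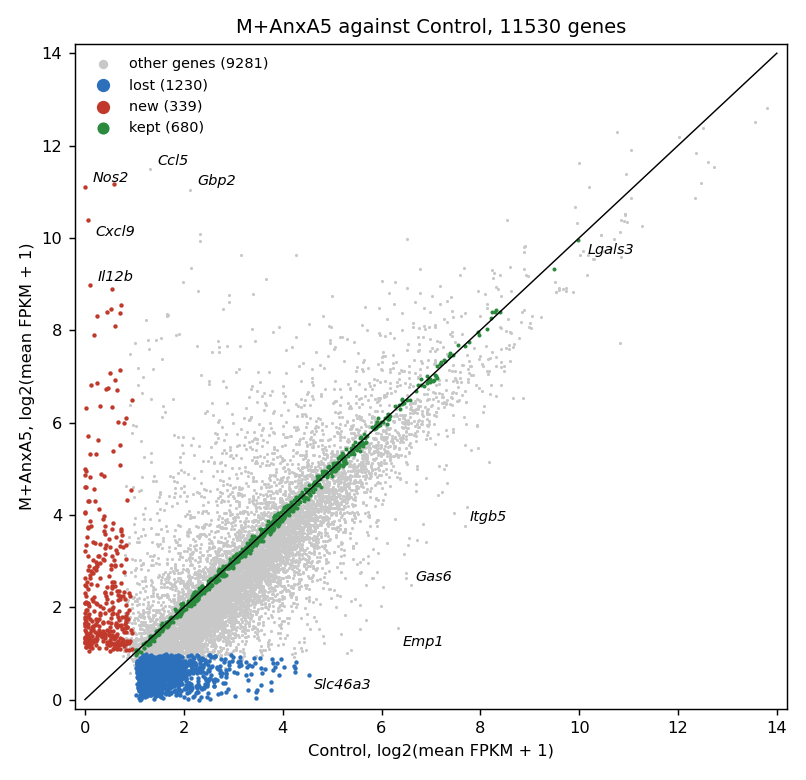
Mean level of each of the 11530 genes with AnxA5 (vertical axis) and in Control (horizontal axis), both as log2(mean FPKM + 1), with the diagonal marking equal levels. The 339 new genes rise along the left edge up to Acod1 and Nos2, the 1230 lost genes lie in a low band along the bottom, and the 680 kept genes follow the diagonal.

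Genes were also sorted by presence, with 1 FPKM as the limit. A gene was called new when all 3 M+AnxA5 libraries reached 1 FPKM and all 3 Control libraries stayed under it, and lost in the reverse case. There were 339 new genes, 1230 lost genes, 9093 present in all 6 libraries and 868 that crossed the limit within a group. New and lost genes had to differ between the groups by this definition, so their values are a description. On the deposited scale the lost class was the larger in number, yet it held little RNA. Its lead in number stayed after TPM and upper-quartile scaling but turned round after quantile normalization, with 563 new and 530 lost genes. Lost genes made up 0.218% ± 0.00736 of the summed FPKM with AnxA5 and 0.958% ± 0.0192 in Control, whereas new genes made up 4.12% ± 0.116 with AnxA5 and 0.0373% ± 0.00181 in Control (SD, n = 3 each). The median new gene stood at 2.68 FPKM with AnxA5 and 0.320 FPKM in Control. The median lost gene stood at 0.553 FPKM with AnxA5 and 1.84 FPKM in Control.

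**Figure D2:**
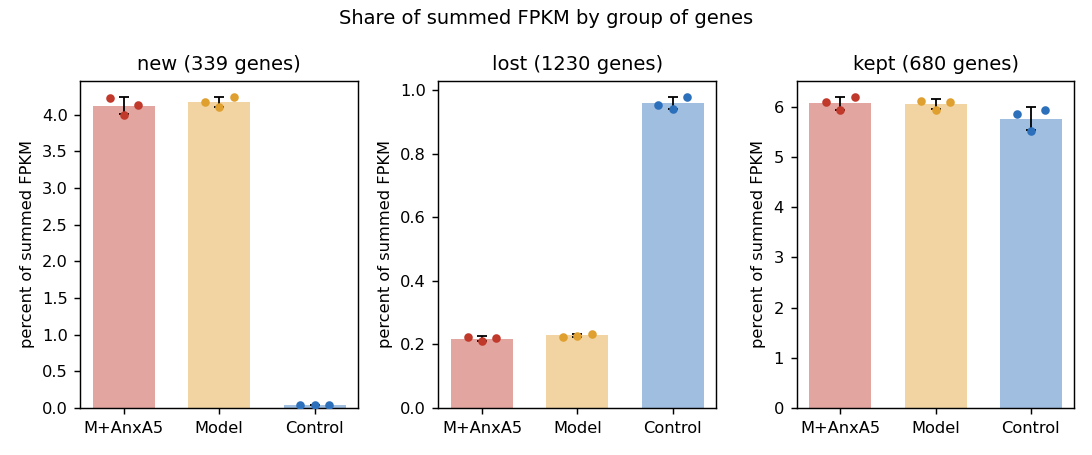
Percent of the summed FPKM of a library taken by new, lost and kept genes in the M+AnxA5, Model and Control groups. Bars are means, error bars SDs over 3 libraries and points single libraries; new genes took about 4.12% with AnxA5 and 4.17% in Model against 0.0373% in Control, and the share of kept genes differed little between groups (6.07%, 6.05% and 5.77%).

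The new class was led by secreted and intracellular defence genes. Acod1, which makes itaconate from an intermediate of the citric acid cycle, was at 2302, 2274 and 2363 FPKM in the M+AnxA5 libraries, against 0.562, 0.334 and 0.6401 FPKM in the Control libraries. Nos2, the inducible nitric oxide synthase, was at 2191, 2226 and 2178 FPKM in the M+AnxA5 libraries, against 0, 0 and 0 FPKM in the Control libraries. Acod1 was under 1 FPKM in every Control library and Nos2 was listed at 0 in all of them. Cxcl9, a chemokine that draws T cells through CXCR3, was at 1390.5, 1284 and 1352 FPKM in the M+AnxA5 libraries, against 0.0984, 0.0122 and 0 FPKM in the Control libraries. Cxcl10, a second CXCR3 ligand, was at 510.1, 451 and 470.0 FPKM in the M+AnxA5 libraries, against 0.392, 0.534 and 0.463 FPKM in the Control libraries. Il12b, the shared subunit of IL-12 and IL-23, was at 517, 504 and 487 FPKM in the M+AnxA5 libraries, against 0.0703, 0.126 and 0.0335 FPKM in the Control libraries. No library of one group came near the other group for any of these genes.

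Cfb, a protease of the alternative complement pathway, was at 395, 350.4 and 374 FPKM in the M+AnxA5 libraries, against 0.778, 0.579 and 0.628 FPKM in the Control libraries (log2 fold change 7.81 ± 0.061 (SE), limma adjusted p = 1.92e-12). Saa3, an acute-phase serum amyloid, was at 385, 296 and 334 FPKM in the M+AnxA5 libraries, against 0.2701, 0.238 and 0.599 FPKM in the Control libraries (log2 fold change 7.95 ± 0.11 (SE), limma adjusted p = 6.43e-11). Il1b, the precursor of interleukin-1β, was at 333, 236 and 245 FPKM in the M+AnxA5 libraries, against 0.275, 0.675 and 0.593 FPKM in the Control libraries, with 1 M+AnxA5 library above the other two (log2 fold change 7.48 ± 0.16 (SE), limma adjusted p = 6.90e-10). Gbp5, a guanylate-binding protein of the inflammasome response, was at 304, 316 and 321 FPKM in the M+AnxA5 libraries, against 0.177, 0.146 and 0.226 FPKM in the Control libraries (log2 fold change 8.06 ± 0.04 (SE), limma adjusted p = 1.02e-13). Serpina3g, a protease inhibitor, was at 297, 348 and 349 FPKM in the M+AnxA5 libraries, against 0.551, 0.677 and 0.657 FPKM in the Control libraries (log2 fold change 7.67 ± 0.083 (SE), limma adjusted p = 1.13e-11). In all, 68 new genes passed 10 FPKM with AnxA5 and 20 passed 100 FPKM, while 20 new genes were listed at 0 in every Control library.

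**Figure D3:**
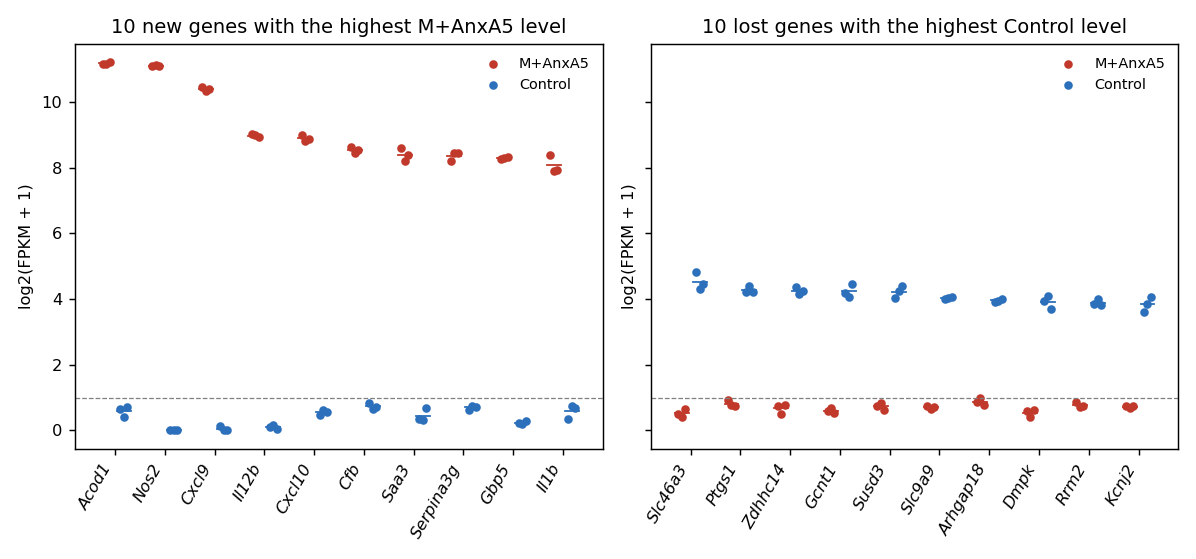
FPKM of single libraries, as log2(FPKM + 1), for the 10 new genes with the highest M+AnxA5 level (left) and the 10 lost genes with the highest Control level (right), with M+AnxA5 in red and Control in blue, horizontal ticks at the means and a dashed line at 1 FPKM. The new genes reach 2313 FPKM in their mean, against at most 22.3 FPKM for the lost genes at rest.

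New genes had a lower median length and a lower share of protein-coding genes than the members as a whole. Of the 339, 65.5% were protein coding and 16.2% long non-coding RNAs, with a median exonic length of 2502 bases. Of the 1230 lost genes, 85.3% were protein coding and 5.94% long non-coding, with a median length of 4344 bases. Over all members the shares were 87.7% and 2.71%, with a median of 3981 bases. Several new genes were neighbours. Another gene of the same class lay within 100 kb for 32.15% of new genes and for 32.44% of lost genes. These shares also depend on the size of a class. Cxcl9, Cxcl10 and Cxcl11 lie at chr5:92321347-92365485, and Gbp8, Gbp4, Gbp10 and Gbp6 lie with a predicted gene at chr5:105014150-105293698, both in the GENCODE M21 annotation of GRCm38. Cfb and C2 lie side by side at chr17:34856374-34898265.

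Promoter windows show which known response elements stand in front of genes that moved together. The windows are RefSeq sequences of GRCm38.p6, from 250 bases before to 50 after a gene's start, and 181 of the 323 new gene symbols had one. An interferon regulatory factor (IRF) element was searched as GAAA and a further GAAA with 2 bases between them, a gamma-activated sequence (GAS) element as TTCNNNGAA and an NF-κB site as its consensus, each on both strands. An IRF element stood in 9.78% of the windows of new genes and 16.7% of those of new genes of at least 10 FPKM, beside 2.61% of the windows of lost genes, 2.60% of kept genes and 3.44% of all promoters. A GAS element stood in 10.2%, 18.8%, 7.08%, 7.66% and 8.30% of the same sets, and the NF-κB consensus in 13.3%, 16.7%, 9.50%, 12.9% and 8.46%. These shares are descriptions, a match is not a binding site, and the elements can overlap. Of the 10 new genes with the highest level, 8 had a window and 4 of these held at least 1 of the 3 elements. Cxcl10 and Gbp5 are printed because each holds both an IRF element and an NF-κB match, with matches in capitals, and Cxcl9, which lies next to Cxcl10, is printed as a window without a match. Cxcl10 is at chr5:92348840-92349139, minus strand, Gbp5 at chr3:142496684-142496983, plus strand and Cxcl9 at chr5:92328030-92328329, minus strand.
Cxcl10: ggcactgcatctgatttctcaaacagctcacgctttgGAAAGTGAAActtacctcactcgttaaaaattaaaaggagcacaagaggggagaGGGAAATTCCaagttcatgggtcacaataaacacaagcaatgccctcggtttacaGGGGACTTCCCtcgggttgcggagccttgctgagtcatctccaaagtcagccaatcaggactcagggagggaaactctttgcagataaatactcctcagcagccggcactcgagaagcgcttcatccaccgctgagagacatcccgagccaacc
Gbp5: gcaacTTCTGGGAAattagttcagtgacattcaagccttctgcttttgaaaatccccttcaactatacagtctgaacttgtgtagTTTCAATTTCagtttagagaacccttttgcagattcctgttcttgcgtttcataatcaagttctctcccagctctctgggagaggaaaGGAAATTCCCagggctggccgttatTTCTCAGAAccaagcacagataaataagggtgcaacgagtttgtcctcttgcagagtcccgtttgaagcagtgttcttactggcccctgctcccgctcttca
Cxcl9: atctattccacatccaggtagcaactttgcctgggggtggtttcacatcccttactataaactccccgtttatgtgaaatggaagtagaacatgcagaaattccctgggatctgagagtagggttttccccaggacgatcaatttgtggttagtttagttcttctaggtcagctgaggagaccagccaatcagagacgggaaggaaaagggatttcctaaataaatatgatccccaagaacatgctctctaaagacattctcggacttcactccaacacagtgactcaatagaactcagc
In the Cxcl10 window the capitals mark 1 IRF element and 3 matches of the NF-κB consensus, 2 of which overlap. In the Gbp5 window they mark 2 GAS elements, 1 IRF element and 1 NF-κB match.

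Most chemokines were higher. Of 12 expressed CXC chemokines 8 were higher and 3 lower, and of 10 CC chemokines 8 were higher and 1 lower, beside the background of 16.4% higher and 61.1% lower. In these lists 6 CXC and 3 CC chemokines were new and had to lie higher, and 1 CXC chemokine was lost. Ccl5, which draws T cells and monocytes, was at 3063, 2673 and 2845 FPKM in the M+AnxA5 libraries, against 2.24, 1.15 and 1.06 FPKM in the Control libraries (log2 fold change 10.2001 ± 0.15 (SE), limma adjusted p = 7.91e-11). Cxcl16, a membrane-bound ligand of CXCR6, was at 224, 232 and 235 FPKM in the M+AnxA5 libraries, against 33.9, 35.1 and 35.2 FPKM in the Control libraries (log2 fold change 2.69 ± 0.036 (SE), limma adjusted p = 4.66e-11). Ccl12 and Ccl22, ligands of CCR2 and CCR4, averaged 51.4 FPKM against 0.0456 FPKM and 44.7 FPKM against 0.624 FPKM in M+AnxA5 against Control. Ccl6 went the other way, at 41.9, 43.1 and 43.1 FPKM in the M+AnxA5 libraries, against 237, 245 and 255 FPKM in the Control libraries (log2 fold change -2.498 ± 0.045 (SE), limma adjusted p = 2.26e-10). Cxcl12, the stromal ligand of CXCR4, was lost, at 0.916, 0.401 and 0.551 FPKM in the M+AnxA5 libraries, against 2.19, 2.45 and 2.71 FPKM in the Control libraries (log2 fold change -1.099 ± 0.13 (SE), limma adjusted p = 4.47e-05). The receptors split, with 6 of 15 chemoattractant receptors higher and 9 lower. Ccr7, which guides cells to lymph nodes, was new at 12.5 FPKM against 0.0937 FPKM, and Fpr2, a receptor for formylated peptides and serum amyloid, averaged 239.7 FPKM against 2.74 FPKM, whereas C5ar1, the receptor of complement C5a, averaged 17.1 ± 2.47 FPKM in M+AnxA5 against 211 ± 6.06 FPKM in Control (log2 fold change -3.56 ± 0.098 (SE), limma adjusted p = 2.87e-09).

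All 15 expressed proinflammatory cytokines were higher with AnxA5 than in Control, with a median log2 fold change of 3.84. Of these, 8 were new, so they entered the comparison through the M+AnxA5 libraries and had to lie higher. The background over all genes tested was 16.4% higher and 61.1% lower. Tnf was at 433, 429 and 462 FPKM in the M+AnxA5 libraries, against 9.19, 10.001 and 9.34 FPKM in the Control libraries (log2 fold change 5.396 ± 0.094 (SE), limma adjusted p = 1.79e-10). Il6 was new, at 36.5, 27.98 and 25.4 FPKM in the M+AnxA5 libraries, against 0.0286, 0 and 0.0274 FPKM in the Control libraries (log2 fold change 4.91 ± 0.14 (SE), limma adjusted p = 3.19e-09). Tnfsf15 and Tnfsf10, TNF family ligands of DR3 and the TRAIL receptors, were new at 27.2 FPKM against 0.0767 FPKM and 16.4 FPKM against 0.213 FPKM. Genes that restrain inflammation rose alongside, with 15 of 16 higher and none lower. Il1rn, the IL-1 receptor antagonist, was at 192, 219 and 191 FPKM in the M+AnxA5 libraries, against 3.52, 3.59 and 4.34 FPKM in the Control libraries (log2 fold change 5.39 ± 0.092 (SE), limma adjusted p = 1.66e-10). Socs1 and Socs3, which block cytokine receptor signalling, averaged 141 FPKM against 0.642 FPKM and 98.8 FPKM against 1.22 FPKM.

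Interferon-responsive genes were higher without exception in 4 lists. All 28 antiviral interferon-stimulated genes, all 10 guanylate-binding proteins, all 7 immunity-related GTPases and all 19 genes of MHC class I presentation were higher, with median log2 fold changes of 4.12, 5.46, 4.52 and 2.56. Over all genes tested 16.4% were higher. In these lists 4, 6, 2 and 0 genes were new, and new genes had to lie higher. Gbp2 was at 1995, 2156 and 2158 FPKM in the M+AnxA5 libraries, against 3.01, 3.15 and 3.86 FPKM in the Control libraries (log2 fold change 8.93 ± 0.071 (SE), limma adjusted p = 2.15e-12). Iigp1, a GTPase that attacks the vacuoles of intracellular pathogens, was at 256, 239 and 215 FPKM in the M+AnxA5 libraries, against 0.108, 0.109 and 0.193 FPKM in the Control libraries (log2 fold change 7.71 ± 0.07 (SE), limma adjusted p = 4.46e-12). Mx1, an interferon-stimulated GTPase gene, was at 306, 336 and 322 FPKM in the M+AnxA5 libraries, against 2.32, 2.18 and 2.17 FPKM in the Control libraries (log2 fold change 6.64 ± 0.06 (SE), limma adjusted p = 4.46e-12). Usp18, which removes ISG15 from proteins, averaged 166 FPKM against 1.93 FPKM. Members of these families, as well as the pairs Tgtp1 and Tgtp2 or H2-Q6 and H2-Q7, have near-identical copies whose reads could have been split between them, so single values are uncertain.

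Of 15 interferon signalling factors 11 were higher and 2 lower, beside the background of 16.4% higher and 61.1% lower. Irf7, a master regulator of type I interferons, averaged 184 FPKM against 4.92 FPKM, and Jak2 averaged 94.4 FPKM against 11.05 FPKM. Ifnar2, a chain of the type I interferon receptor, was among the kept genes at 37.9, 32.9 and 33.3 FPKM in the M+AnxA5 libraries, against 36.2, 36.97 and 36.7 FPKM in the Control libraries (95% interval of the log2 fold change -0.25 to 0.091). Antigen presentation genes were higher too. Nlrc5, the MHC class I transactivator, averaged 49.8 FPKM against 3.55 FPKM, and Tap1, part of the peptide transporter, averaged 71.02 FPKM against 4.999 FPKM. Among MHC class II genes 8 of 9 were higher and 1 lower, led by Ciita, the class II transactivator, which was new at 12.5, 12.3 and 12.7 FPKM in the M+AnxA5 libraries, against 0.262, 0.444 and 0.261 FPKM in the Control libraries (log2 fold change 3.36 ± 0.066 (SE), limma adjusted p = 3.52e-10). H2-Ab1 was at 196, 166 and 183 FPKM in the M+AnxA5 libraries, against 56.99, 37.2 and 41.9 FPKM in the Control libraries (log2 fold change 1.997 ± 0.14 (SE), limma adjusted p = 1.08e-06). Of 9 co-stimulatory and checkpoint ligands 8 were higher and 1 lower. Cd40 was at 159.5, 194 and 181 FPKM in the M+AnxA5 libraries, against 0.911, 1.01 and 0.753 FPKM in the Control libraries (log2 fold change 6.56 ± 0.081 (SE), limma adjusted p = 2.58e-11), Cd86 averaged 90.1 ± 1.32 FPKM in M+AnxA5 against 1.54 ± 0.307 FPKM in Control, and Cd274, which encodes PD-L1, averaged 795 ± 17.6 FPKM in M+AnxA5 against 18.4 ± 3.52 FPKM in Control.

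Sensing genes moved in both directions. Of 16 TLR receptors and adaptors 9 were higher and 4 lower, of 11 NF-κB subunits and kinases 9 were higher and 2 lower, and of 12 inflammasome genes 8 were higher and 3 lower. The background over all genes tested was 16.4% higher and 61.1% lower. Tlr9, a sensor of unmethylated DNA, averaged 63.8 ± 7.99 FPKM in M+AnxA5 against 5.44 ± 0.1299 FPKM in Control, whereas Tlr13, a sensor of bacterial ribosomal RNA, averaged 33.04 ± 1.302 FPKM in M+AnxA5 against 157 ± 4.93 FPKM in Control (log2 fold changes 3.32 and -2.22). Myd88, the adaptor of most TLRs, was at 53.95, 53.01 and 57.1 FPKM in the M+AnxA5 libraries, against 22.6, 21.9 and 23.6 FPKM in the Control libraries (log2 fold change 1.23 ± 0.048 (SE), limma adjusted p = 2.49e-08). Tlr4 itself could not be placed, at 1.44, 1.42 and 5.94 FPKM in the M+AnxA5 libraries, against 3.43, 16.1 and 2.85 FPKM in the Control libraries, with 1 library standing apart in each group (log2 fold change -0.94 ± 0.71 (SE), limma adjusted p = 0.241). Unc93b1, which carries nucleic acid-sensing TLRs to endosomes, was kept at 177, 166 and 179 FPKM in the M+AnxA5 libraries, against 162, 158 and 169 FPKM in the Control libraries (95% interval of the log2 fold change -0.015 to 0.2002). Nfkb2 averaged 68.8 FPKM against 9.302 FPKM and Nlrp3, the core of an inflammasome, 45.01 FPKM against 7.69 FPKM, while Nlrp1b averaged 2.37 ± 0.0459 FPKM in M+AnxA5 against 9.08 ± 0.667 FPKM in Control (log2 fold change -1.58 ± 0.058 (SE), limma adjusted p = 1.78e-08).

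Genes of sugar use rose together. All 17 genes of glycolysis and glucose uptake and all 10 hypoxia and HIF-1 targets were higher, with median log2 fold changes of 1.38 and 2.00, and 15 of the 17 glycolysis genes stayed higher after quantile normalization. Hif1a was at 233, 233 and 225 FPKM in the M+AnxA5 libraries, against 17.5, 19.4 and 17.6 FPKM in the Control libraries (log2 fold change 3.59 ± 0.069 (SE), limma adjusted p = 3.09e-10). Slc2a1, the glucose transporter GLUT1, averaged 124 ± 2.41 FPKM in M+AnxA5 against 23.004 ± 1.18 FPKM in Control, Hk3, a hexokinase, 378 ± 5.72 FPKM in M+AnxA5 against 75.3 ± 2.08 FPKM in Control, and Slc16a3, a lactate exporter, 76.6 ± 4.54 FPKM in M+AnxA5 against 11.2 ± 0.399 FPKM in Control. Genes of nitric oxide, arginine and itaconate metabolism were higher in 8 of 9 cases and lower in 1, with Ass1, which rebuilds arginine from citrulline, at 208, 196 and 202 FPKM in the M+AnxA5 libraries, against 6.83, 6.64 and 5.56 FPKM in the Control libraries (log2 fold change 4.79 ± 0.074 (SE), limma adjusted p = 8.59e-11). Of these 9 genes 4 were new and so had to lie higher. Arg1 was new by a narrow margin, at 1.64, 1.79 and 1.399 FPKM in the M+AnxA5 libraries, against 0.699, 0.4397 and 0.486 FPKM in the Control libraries (log2 fold change 0.76 ± 0.11 (SE), limma adjusted p = 0.0002). Of 19 NADPH oxidase and antioxidant genes 9 were higher and 5 lower, beside the background of 16.4% higher and 61.1% lower. Sod2, the mitochondrial superoxide dismutase, averaged 108 ± 7.97 FPKM in M+AnxA5 against 6.21 ± 0.569 FPKM in Control, and Cybb, the catalytic oxidase subunit, 586 ± 4.52 FPKM in M+AnxA5 against 191 ± 7.34 FPKM in Control. Of 10 iron genes 4 were higher and 5 lower, and the balance was 5 to 5 after upper-quartile scaling. Hmox1, which degrades haem, averaged 1341 ± 5.85 FPKM in M+AnxA5 against 369 ± 23.2 FPKM in Control, whereas Tfrc, the transferrin receptor, averaged 7.29 ± 0.197 FPKM in M+AnxA5 against 41.7 ± 2.91 FPKM in Control (log2 fold changes 1.86 and -2.36).

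Of 13 prostanoid genes 3 were higher and 9 lower, near the background of 16.4% higher and 61.1% lower. Ptgs2, the inducible cyclooxygenase, was at 545, 526 and 517 FPKM in the M+AnxA5 libraries, against 2.599, 3.86 and 2.37 FPKM in the Control libraries (log2 fold change 7.09 ± 0.12 (SE), limma adjusted p = 1.42e-10). Ptgs1, the constitutive cyclooxygenase, was lost at 0.9104, 0.709 and 0.682 FPKM in the M+AnxA5 libraries, against 17.6, 19.9 and 17.7 FPKM in the Control libraries (log2 fold change -3.46 ± 0.081 (SE), limma adjusted p = 1.02e-09). Ptges, which makes prostaglandin E2 downstream of COX-2, averaged 22.02 ± 1.68 FPKM in M+AnxA5 against 1.14 ± 0.207 FPKM in Control, and Alox5ap, which feeds arachidonate to 5-lipoxygenase, averaged 44.7 ± 1.97 FPKM in M+AnxA5 against 205 ± 0.427 FPKM in Control. Of 14 complement genes 5 were higher and 9 lower. C3, the central component, averaged 433 ± 7.69 FPKM in M+AnxA5 against 6.58 ± 0.413 FPKM in Control, whereas Cfp, which stabilises the alternative convertase, averaged 56.5 ± 4.15 FPKM in M+AnxA5 against 158 ± 4.002 FPKM in Control. Of 17 KLF, EGR and AP-1 factors 9 were higher and 4 lower, among them Batf2, which was new at 14.1 FPKM against 0.289 FPKM, and Junb at 159 FPKM against 48.6 FPKM.

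The lost class spanned several functions. Its most abundant resting gene was Slc46a3, a lysosomal transporter, at 0.422, 0.334 and 0.577 FPKM in the M+AnxA5 libraries, against 27.1, 18.9 and 20.8 FPKM in the Control libraries (log2 fold change -3.997 ± 0.13 (SE), limma adjusted p = 9.77e-09). Zdhhc14, a palmitoyltransferase, was at 0.671, 0.415 and 0.721 FPKM in the M+AnxA5 libraries, against 19.6, 16.6 and 18.1 FPKM in the Control libraries (log2 fold change -3.58 ± 0.096 (SE), limma adjusted p = 2.39e-09). Gcnt1, which branches O-glycans, was at 0.5004, 0.591 and 0.444 FPKM in the M+AnxA5 libraries, against 17.2, 15.9 and 21.1 FPKM in the Control libraries (log2 fold change -3.65 ± 0.099 (SE), limma adjusted p = 2.58e-09). Slc9a9, an endosomal sodium/proton exchanger, was at 0.681, 0.574 and 0.629 FPKM in the M+AnxA5 libraries, against 14.9, 15.5 and 15.6 FPKM in the Control libraries (log2 fold change -3.33 ± 0.061 (SE), limma adjusted p = 2.48e-10). Only 23 lost genes passed 10 FPKM in Control and 78 passed 5 FPKM. Susd3, Arhgap18, Dmpk and Kcnj2, which were also among the 10 lost genes with the highest level at rest, averaged between 13.4 and 17.7 FPKM in Control and stayed under 1 FPKM with AnxA5.

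Proliferation genes gave the list with the most lost members among the 44. Of 22 mitosis genes 21 were lower and 20 were lost, and of 24 DNA replication genes 23 were lower and 10 were lost, with median log2 fold changes of -1.61 and -1.54. Beside these stand 61.1% lower over all genes tested and 1230 lost genes among the 11530 members. Lost members entered the comparison through the Control libraries and had to lie lower, so the counts of these lists are a description. Rrm2, the regulated subunit of ribonucleotide reductase, was at 0.833, 0.631 and 0.692 FPKM in the M+AnxA5 libraries, against 13.3, 14.97 and 12.99 FPKM in the Control libraries (log2 fold change -3.1001 ± 0.088 (SE), limma adjusted p = 3.36e-09). Top2a, the topoisomerase of dividing cells, was at 0.783, 0.613 and 0.669 FPKM in the M+AnxA5 libraries, against 8.23, 10.2 and 8.49 FPKM in the Control libraries (log2 fold change -2.56 ± 0.086 (SE), limma adjusted p = 1.02e-08). Ccna2, the cyclin of S phase and G2, was at 0.2395, 0.308 and 0.291 FPKM in the M+AnxA5 libraries, against 5.77, 6.86 and 5.75 FPKM in the Control libraries (log2 fold change -2.47 ± 0.072 (SE), limma adjusted p = 4.07e-09). Mcm6, a subunit of the replicative helicase, fell without being lost, at 3.799, 4.33 and 4.34 FPKM in the M+AnxA5 libraries, against 31.4, 33.4 and 30.6 FPKM in the Control libraries (log2 fold change -2.67 ± 0.063 (SE), limma adjusted p = 1.05e-09). Tpx2, a spindle assembly factor, was the single mitosis gene called higher (6.11 FPKM against 4.22 FPKM, M+AnxA5 against Control). Of 16 G1 regulators 5 were higher and 9 lower. Cdkn1a, which encodes the cell cycle inhibitor p21, averaged 160.0 ± 1.94 FPKM in M+AnxA5 against 36.99 ± 4.61 FPKM in Control, whereas Cdk6 averaged 1.42 ± 0.0769 FPKM in M+AnxA5 against 6.49 ± 0.388 FPKM in Control and E2f2, an activator of S-phase genes, averaged 0.231 ± 0.0474 FPKM in M+AnxA5 against 3.72 ± 0.465 FPKM in Control.

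Windows of mitosis genes often held elements known from cell cycle control. A CCAAT box, the site of NF-Y, stood in 84.2% of their 19 windows, and the cell cycle homology region (CHR), searched as TTTGAA, in 68.4%, beside 37.4% and 17.9% of all promoters. The CCAAT box was nearly as frequent in other lists, in 77.3% of the windows of DNA replication genes and 80% of those of sterol synthesis genes. Windows of DNA replication genes held an E2F-type element, searched as TTTNNCGC, in 54.5% of 22 cases, beside 5.17% of all promoters. The windows of Top2a (chr11:99024140-99024439, minus strand) and Plk1 (chr7:122159185-122159484, plus strand), a mitotic kinase at 0.255 FPKM against 3.91 FPKM in M+AnxA5 against Control, are printed as examples of this arrangement, with CCAAT and CHR matches on either strand in capitals. Both were chosen after the matches were known.
Top2a: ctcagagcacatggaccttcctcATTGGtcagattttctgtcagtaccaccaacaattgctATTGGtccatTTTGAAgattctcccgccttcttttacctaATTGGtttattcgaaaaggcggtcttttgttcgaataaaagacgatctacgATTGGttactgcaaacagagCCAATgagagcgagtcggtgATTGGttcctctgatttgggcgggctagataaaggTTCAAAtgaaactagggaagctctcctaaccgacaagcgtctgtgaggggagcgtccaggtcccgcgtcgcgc
Plk1: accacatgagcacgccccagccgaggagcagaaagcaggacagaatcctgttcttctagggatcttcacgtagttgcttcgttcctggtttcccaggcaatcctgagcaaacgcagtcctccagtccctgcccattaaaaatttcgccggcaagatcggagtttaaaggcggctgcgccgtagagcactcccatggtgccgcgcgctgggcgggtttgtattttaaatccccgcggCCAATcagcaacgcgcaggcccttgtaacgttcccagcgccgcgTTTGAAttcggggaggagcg
The Top2a window holds 6 CCAAT boxes and 2 CHR matches, and the Plk1 window holds 1 of each.

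Of 15 transcription factors of the macrophage lineage 4 were higher and 9 lower, close to the background of 16.4% higher and 61.1% lower. Cebpa, a myeloid lineage factor, was at 15.3, 15.03 and 16.2 FPKM in the M+AnxA5 libraries, against 164, 176 and 184 FPKM in the Control libraries (log2 fold change -3.41 ± 0.051 (SE), limma adjusted p = 7.07e-11). Pparg, a regulator of lipid handling, was lost at 0.251, 0.196 and 0.265 FPKM in the M+AnxA5 libraries, against 10.9, 10.8 and 10.6 FPKM in the Control libraries (log2 fold change -3.25 ± 0.066 (SE), limma adjusted p = 4.41e-10). Cebpb, an inducible relative of Cebpa, was higher at 363, 334 and 366 FPKM in the M+AnxA5 libraries, against 128, 105 and 111 FPKM in the Control libraries (log2 fold change 1.62 ± 0.076 (SE), limma adjusted p = 8.16e-08). Spi1, the pioneer factor of myeloid cells, was not called and averaged 126 ± 5.7003 FPKM in M+AnxA5 against 105 ± 1.95 FPKM in Control. Surface genes of M-CSF macrophages, 18 genes on 20 entries, were evenly split, with 9 entries higher and 9 lower, and 7 to 11 after quantile normalization. The log2 fold changes of this list ran from -2.22 to 2.15. On its higher side, Fcgr1 and Fcgr4, activating antibody receptors, averaged 163 FPKM against 48.95 FPKM and 304 FPKM against 68.02 FPKM. The symbols Itgam and Lilrb4a each stand on 2 entries of the table, so their values are uncertain and each entry was counted.

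Genes of debris clearance moved in both directions. Of 16 phosphatidylserine receptors and bridging proteins 3 were higher and 10 lower, shares close to the background of 16.4% and 61.1%. Gas6, which bridges phosphatidylserine to the TAM receptors, was at 4.65, 4.57 and 4.46 FPKM in the M+AnxA5 libraries, against 92.03, 102 and 92.5 FPKM in the Control libraries (log2 fold change -4.12 ± 0.074 (SE), limma adjusted p = 2.25e-10). Its receptors stood opposite to it. Axl was at 171, 171 and 176 FPKM in the M+AnxA5 libraries, against 66.01, 63.6 and 62.8 FPKM in the Control libraries (log2 fold change 1.41 ± 0.039 (SE), limma adjusted p = 2.77e-09), and Mertk was at 146, 138 and 141 FPKM in the M+AnxA5 libraries, against 49.7, 45.1 and 47.7 FPKM in the Control libraries (log2 fold change 1.56 ± 0.043 (SE), limma adjusted p = 2.77e-09). Itgb5, an integrin subunit that binds the bridge MFG-E8, was at 13.1, 12.2 and 12.3 FPKM in the M+AnxA5 libraries, against 204, 201 and 211 FPKM in the Control libraries (log2 fold change -3.93 ± 0.041 (SE), limma adjusted p = 9.85e-12). Of 14 integrin entries, from a list of 13 genes, 3 were higher and 8 lower, near the same background. Itga6 was at 1.67 FPKM against 35.1 FPKM and Itgal, the leukocyte integrin LFA-1, at 154 FPKM against 60.1 FPKM in M+AnxA5 against Control. Of 13 scavenger and mannose receptors 3 were higher and 10 lower, beside the same background. Mrc1, the mannose receptor CD206, was at 8.204, 12.1 and 10.5 FPKM in the M+AnxA5 libraries, against 85.3, 97.9 and 94.3 FPKM in the Control libraries (log2 fold change -3.07 ± 0.13 (SE), limma adjusted p = 5.15e-08), whereas Marco, a scavenger receptor for bacteria, was at 543, 377 and 463 FPKM in the M+AnxA5 libraries, against 3.78, 3.71 and 4.21 FPKM in the Control libraries (log2 fold change 6.54 ± 0.12 (SE), limma adjusted p = 2.58e-10). Dab2, an endocytic adaptor, averaged 2.28 ± 0.363 FPKM in M+AnxA5 against 50.3 ± 3.41 FPKM in Control, and Lrp1, a large endocytic receptor, 41.3 ± 1.79 FPKM in M+AnxA5 against 223 ± 8.51 FPKM in Control.

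Lipid-associated genes were lower with few exceptions. Of 16 TREM2 and lipid-associated genes 15 were lower and none higher. Trem2, a lipid-sensing receptor, was at 20.01, 23.4 and 22.4 FPKM in the M+AnxA5 libraries, against 106, 96.5 and 108 FPKM in the Control libraries (log2 fold change -2.19 ± 0.068 (SE), limma adjusted p = 6.25e-09). Ctsd, an aspartic protease of lysosomes and 1 of the most abundant resting transcripts, was at 1794, 1913 and 1907 FPKM in the M+AnxA5 libraries, against 5331, 4979 and 5310.1 FPKM in the Control libraries (log2 fold change -1.48 ± 0.051 (SE), limma adjusted p = 1.14e-08). Of 10 alternative activation genes 3 were higher and 6 lower, beside the background of 16.4% higher and 61.1% lower, and 4 were higher and 4 lower after upper-quartile scaling. Of 14 growth factors 4 were higher and 9 lower, beside the same background. Igf1 was at 9.11, 9.801 and 9.57 FPKM in the M+AnxA5 libraries, against 65.1, 67.2 and 71.3 FPKM in the Control libraries (log2 fold change -2.71 ± 0.051 (SE), limma adjusted p = 2.65e-10), Hgf was lost at 0.654 FPKM against 5.63 FPKM, and Tgfb1 had a smaller decrease, not called after upper-quartile scaling, at 43.5, 43.8 and 46.95 FPKM in the M+AnxA5 libraries, against 59.6, 57.6 and 58.6 FPKM in the Control libraries (log2 fold change -0.38 ± 0.045 (SE), limma adjusted p = 3.86e-05). Of 16 tetraspan, annexin and lipid carrier genes 3 were higher and 9 lower, near the same background. Emp1, an epithelial membrane protein, had the lowest log2 fold change of all genes named, at 1.79, 2.14 and 1.86 FPKM in the M+AnxA5 libraries, against 84.4, 75.5 and 78.98 FPKM in the Control libraries (log2 fold change -4.78 ± 0.066 (SE), limma adjusted p = 5.42e-11). Of 17 matrix protease and plasminogen genes 7 were higher and 8 lower, with a median log2 fold change of -0.0029 that was above 0 under the 3 other scalings. Mmp13, a collagenase, averaged 267 ± 28.9 FPKM in M+AnxA5 against 14.1 ± 0.632 FPKM in Control, and Timp2, a protease inhibitor, 25.2 ± 0.879 FPKM in M+AnxA5 against 89.5 ± 2.45 FPKM in Control.

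Among the 10 genes with the lowest log2 fold change outside these lists were Arhgap19, a GTPase-activating protein, at 1.11 ± 0.0978 FPKM in M+AnxA5 against 40.9 ± 2.44 FPKM in Control, Sesn1, a stress-induced regulator of mTORC1, at 1.01 ± 0.214 FPKM in M+AnxA5 against 38.5 ± 6.16 FPKM in Control, and Abcc3, an organic anion exporter, at 1.87 ± 0.139 FPKM in M+AnxA5 against 46.6 ± 1.71 FPKM in Control. Glul, glutamine synthetase, averaged 5.23 ± 0.523 FPKM in M+AnxA5 against 89.02 ± 7.92 FPKM in Control. Igfbp4, a binding protein of insulin-like growth factors, was at 3.403, 2.84 and 3.03 FPKM in the M+AnxA5 libraries, against 69.6, 80.995 and 38.3 FPKM in the Control libraries, with Control replicate 3 below the other Control libraries (log2 fold change -3.902 ± 0.24 (SE), limma adjusted p = 4.83e-07).

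Sterol synthesis and protein synthesis genes were lower, mostly without being lost. Of 23 sterol synthesis genes 22 were lower, 2 of them lost, with a median log2 fold change of -1.37. The background over all genes tested was 61.1% lower and 16.4% higher. Idi1, an isomerase of the mevalonate pathway, was at 5.69, 5.74 and 5.55 FPKM in the M+AnxA5 libraries, against 27.05, 28.7 and 28.6 FPKM in the Control libraries (log2 fold change -2.13 ± 0.067 (SE), limma adjusted p = 6.85e-09). Cyp51, a sterol demethylase, was at 7.11, 6.55 and 6.63 FPKM in the M+AnxA5 libraries, against 34.5, 33.9 and 36.3 FPKM in the Control libraries (log2 fold change -2.21 ± 0.074 (SE), limma adjusted p = 9.69e-09). Dhcr7, which makes cholesterol in the last step, was lost at 0.924, 0.788 and 0.869 FPKM in the M+AnxA5 libraries, against 10.4, 8.75 and 10.03 FPKM in the Control libraries (log2 fold change -2.53 ± 0.071 (SE), limma adjusted p = 3.39e-09). Of 13 cholesterol efflux and LXR genes 4 were higher and 9 lower, beside the same background. Nr1h3, which encodes LXRα, averaged 33.8 ± 2.399 FPKM in M+AnxA5 against 10.2 ± 1.28 FPKM in Control, and Apoc2, a cofactor of lipoprotein lipase, averaged 3.2001 ± 0.768 FPKM in M+AnxA5 against 18.6 ± 1.48 FPKM in Control. Of 40 cytosolic ribosomal proteins 39 were lower, with a median log2 fold change of -0.87, beside -0.47 over all members. Rpl3 was at 51.9, 50.98 and 52.5 FPKM in the M+AnxA5 libraries, against 118, 122 and 122 FPKM in the Control libraries (log2 fold change -1.201 ± 0.034 (SE), limma adjusted p = 3.13e-09), while Rps24 was kept at 38.1, 42.8 and 38.8 FPKM in the M+AnxA5 libraries, against 39.6, 39.1 and 39.3 FPKM in the Control libraries (95% interval of the log2 fold change -0.11 to 0.14). Ribosomal protein genes have many processed copies in the genome, so these values are uncertain where reads were split.

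Of 30 lysosomal hydrolases and cathepsins 5 were higher and 21 lower, near the background of 16.4% higher and 61.1% lower, and of 24 proton pump and membrane genes 4 were higher, 12 lower and 6 kept. Gusb, β-glucuronidase, averaged 50.1 ± 1.54 FPKM in M+AnxA5 against 126 ± 1.14 FPKM in Control, whereas Ctsc, which activates granule proteases, averaged 534 ± 5.19 FPKM in M+AnxA5 against 63.8 ± 3.98 FPKM in Control (log2 fold changes -1.31 and 3.05). Atp6v0d2, a pump subunit also used in osteoclasts, was at 50.5, 69.5 and 63.3 FPKM in the M+AnxA5 libraries, against 252, 226 and 255 FPKM in the Control libraries (log2 fold change -1.99 ± 0.13 (SE), limma adjusted p = 9.49e-07). Atp6v0a1 was at 5.98, 7.01 and 6.89 FPKM in the M+AnxA5 libraries, against 46.4, 43.2 and 44.3 FPKM in the Control libraries (log2 fold change -2.58 ± 0.059 (SE), limma adjusted p = 9.36e-10). After quantile normalization 1 pump and membrane gene was kept.

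**Figure D4:**
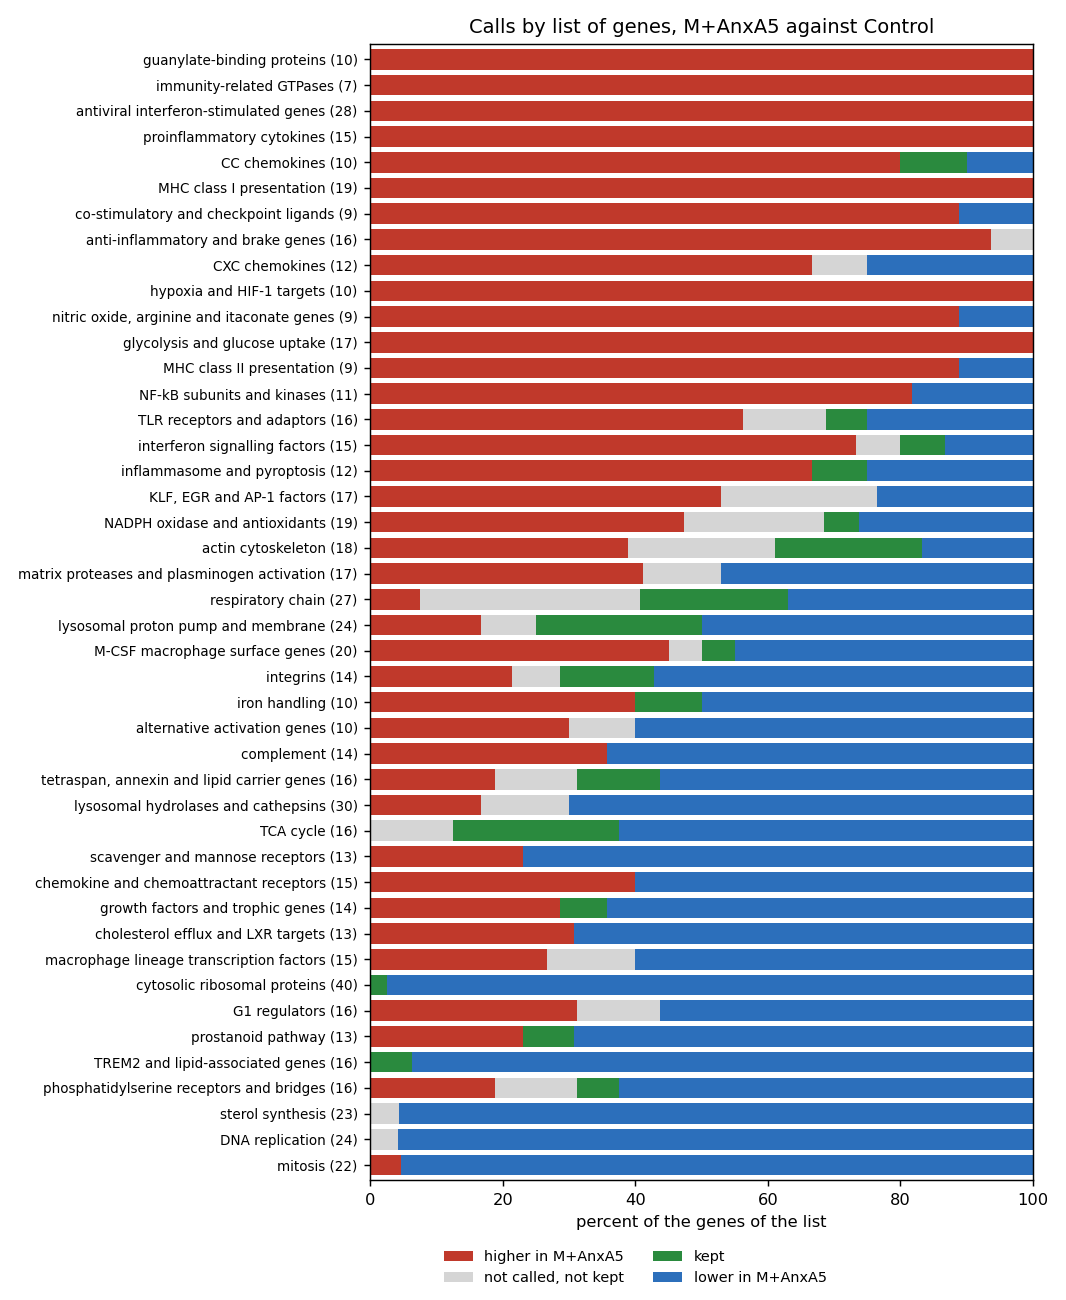
Calls in 44 lists of genes, ordered from the highest median log2 fold change at the top to the lowest at the bottom, with the number of expressed gene entries of each list in brackets. Each bar gives the percent of a list that was higher with AnxA5 (red), not called and not kept (grey), kept (green) and lower (blue); defence lists at the top are wholly or nearly red, and mitosis, DNA replication and sterol synthesis at the bottom are nearly all blue.

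What was kept was read from the interval of the fold change, because a missing call does not show that a level stayed. A gene was called kept when the whole 95% interval of its fold change lay within 1.2-fold of Control. This held for 680 genes, or 5.90% of the members, against 5.88% of all genes tested, and a further 1876 genes were neither called nor kept. A kept level is one on the scale of the deposited FPKM. TPM scaling left 489 of the 680 genes kept, upper-quartile scaling 109 and quantile normalization 144, and 29 genes were kept under all 4 scalings. None of the 27 kept genes named by rule was among the 29. The most abundant of those, chosen after their values were seen, were Ostf1, a signalling protein named for osteoclasts, at 32.9, 32.4 and 33.1 FPKM in the M+AnxA5 libraries, against 36.6, 34.4 and 36.3 FPKM in the Control libraries, and Myo1c, an unconventional myosin, at 30.2, 31.1 and 29.9 FPKM in the M+AnxA5 libraries, against 31.8, 34.2 and 31.9 FPKM in the Control libraries.

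The kept gene with the highest level among those described was Lgals3, which encodes galectin-3, at 938, 1029.7 and 1021 FPKM in the M+AnxA5 libraries, against 1082, 905 and 1013 FPKM in the Control libraries (95% interval of the log2 fold change -0.199 to 0.19). It was the exception in the TREM2 and lipid-associated list, where 15 of 16 genes were lower. Under TPM and upper-quartile scaling Lgals3 was not kept. Lamp1, a lysosomal membrane glycoprotein, was at 636, 632 and 658 FPKM in the M+AnxA5 libraries, against 724, 707 and 718 FPKM in the Control libraries (95% interval of the log2 fold change -0.24 to -0.078), so all M+AnxA5 libraries were lower, by less than the 1.2-fold limit. Anxa5 itself, the gene of the endogenous protein, was at 330.0, 336 and 344 FPKM in the M+AnxA5 libraries, against 324, 300.5 and 309.6 FPKM in the Control libraries (95% interval of the log2 fold change 0.021 to 0.202). Arpc2, a subunit of the actin-branching complex, was at 331, 333 and 338 FPKM in the M+AnxA5 libraries, against 330.4, 336 and 337 FPKM in the Control libraries (95% interval of the log2 fold change -0.078 to 0.073), with overlapping groups. Pfn1, which loads actin monomers, was at 361, 327 and 356 FPKM in the M+AnxA5 libraries, against 323, 314 and 316 FPKM in the Control libraries (95% interval of the log2 fold change 0.028 to 0.23). Cd53, a tetraspanin of leukocytes, was at 242, 256 and 248 FPKM in the M+AnxA5 libraries, against 244, 246 and 254 FPKM in the Control libraries (95% interval of the log2 fold change -0.078 to 0.092). Grn, the progranulin gene, was at 246, 231 and 240.1 FPKM in the M+AnxA5 libraries, against 242, 249 and 263 FPKM in the Control libraries (95% interval of the log2 fold change -0.18 to 0.033). The direction of these genes depended on scaling. Quantile normalization called Lamp1, Arpc2, Cd53, Grn, Atp5a1, Atp6v1g1, Ccl9 and Unc93b1 lower, whereas upper-quartile scaling called Anxa5, Pfn1, Rps24 and Unc93b1 higher.

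Actin and mitochondrial genes also held kept members, though the balance of higher and lower genes turned with scaling. Of 18 actin cytoskeleton genes 4 were kept, 7 higher and 3 lower, and 3 were higher and 8 lower after quantile normalization. Of 27 respiratory chain genes 6 were kept, 2 higher and 10 lower, and 8 were higher and 4 lower after upper-quartile scaling. Atp5a1, a subunit of the ATP synthase, was at 118, 123 and 126 FPKM in the M+AnxA5 libraries, against 125, 127 and 124 FPKM in the Control libraries (95% interval of the log2 fold change -0.12 to 0.048). Of 16 citric acid cycle genes 4 were kept, 10 lower and none higher, beside the background of 5.88% kept, 61.1% lower and 16.4% higher. The lowest log2 fold change of this list was that of Idh1, whose enzyme is cytosolic. Cs, citrate synthase, was kept at 31.4, 31.3 and 32.2 FPKM in the M+AnxA5 libraries, against 30.5, 32.03 and 32.2 FPKM in the Control libraries (95% interval of the log2 fold change -0.086 to 0.091). Idh1, the cytosolic isocitrate dehydrogenase, was at 9.598, 10.5 and 9.95 FPKM in the M+AnxA5 libraries, against 105, 103 and 105 FPKM in the Control libraries (log2 fold change -3.26 ± 0.047 (SE), limma adjusted p = 6.61e-11), and Idh2, its mitochondrial relative, averaged 2.79 ± 0.232 FPKM in M+AnxA5 against 17.4 ± 0.7101 FPKM in Control. Of the 100 most abundant genes at rest, 64 were also among the 100 most abundant with AnxA5. Of the same 100 genes 21 were higher, 64 lower and 15 not called, 5 of them kept. These counts lie near the background of 16.4% higher, 61.1% lower and 5.88% kept.

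Few of these levels were called different from those with stimulation alone. A missing call does not show that the levels were the same. Between M+AnxA5 and Model, 319 members were called, 227 higher and 92 lower with AnxA5, against 2.76% of all genes tested, or 1.95% higher and 0.815% lower. This comparison shares the M+AnxA5 libraries with the one above, so the values of all groups are given side by side and no relation between the 2 sets of calls is read as a result. Leaving out Model replicate 2 gave 139 genes and leaving out Model replicate 3 gave 186. For M+AnxA5 replicate 2 the count was 158, for M+AnxA5 replicate 3 it was 121, and with all 3 libraries numbered 2 left out it was 11. Of the 227 and 92 calls, 75 and 26 held without each of the 9 libraries in turn. Of the new genes 38 differed from Model, 30 higher and 8 lower, of the lost genes 3 and of the kept genes 19.

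Ciita had the lowest p among new genes that differed from Model. It was at 12.5, 12.3 and 12.7 FPKM in M+AnxA5, 6.70003, 7.28 and 6.91 FPKM in Model and 0.262, 0.444 and 0.261 FPKM in Control libraries (log2 fold change against Model 0.76 ± 0.066 (SE), limma adjusted p = 0.00204), and this call held under all 20 alternative settings. Hcar2, a receptor for niacin and ketone bodies, was at 48.6, 49.02 and 48.2 FPKM in M+AnxA5, 30.5, 31.96 and 30.3 FPKM in Model and 0.3196, 0.114 and 0.150004 FPKM in Control libraries (log2 fold change against Model 0.64 ± 0.065 (SE), limma adjusted p = 0.00273). Dennd3, an exchange factor of Rab12, was at 7.12, 7.25 and 7.28 FPKM in M+AnxA5, 4.63, 4.56 and 4.91 FPKM in Model and 0.307, 0.296 and 0.276 FPKM in Control libraries (log2 fold change against Model 0.53 ± 0.05 (SE), limma adjusted p = 0.00244). Kynu, which degrades kynurenine, was at 6.301, 6.57 and 6.57 FPKM in M+AnxA5, 4.68, 4.43 and 4.36 FPKM in Model and 0.0507, 0.0293 and 0.0858 FPKM in Control libraries (log2 fold change against Model 0.45 ± 0.053 (SE), limma adjusted p = 0.0046). Vnn3, a pantetheinase, was at 5.702, 7.296 and 5.48 FPKM in M+AnxA5, 2.42, 1.88 and 3.05 FPKM in Model and 0.266, 0.0812 and 0.0716 FPKM in Control libraries (log2 fold change against Model 1.06 ± 0.14 (SE), limma adjusted p = 0.00645). Each of these had all M+AnxA5 libraries above all Model libraries, and the call of Hcar2 ended under 2 of 20 settings, while those of Dennd3, Kynu and Vnn3 ended under 1, 2 and 2 of the 19 settings that tested them. Il12b lay the other way, at 517, 504 and 487 FPKM in M+AnxA5, 603, 613 and 624 FPKM in Model and 0.0703, 0.126 and 0.0335 FPKM in Control libraries (log2 fold change against Model -0.29 ± 0.043 (SE), limma adjusted p = 0.0109), as did Xcr1, a receptor for Xcl1, at 2.86, 3.11 and 3.31 FPKM in M+AnxA5, 4.96, 5.12 and 4.48 FPKM in Model and 0.0983, 0.0348 and 0.0624 FPKM in Control libraries (log2 fold change against Model -0.52 ± 0.067 (SE), limma adjusted p = 0.0056). The call of Il12b ended under 6 of 20 settings and that of Xcr1 under 2 of 19. Nos2 was at 2191, 2226 and 2178 FPKM in M+AnxA5, 1771, 1728 and 1973 FPKM in Model and 0, 0 and 0 FPKM in Control libraries (log2 fold change against Model 0.27 ± 0.05 (SE), limma adjusted p = 0.0248), with a call that ended under 11 of 20 settings, and Il1b at 333, 236 and 245 FPKM in M+AnxA5, 399, 508 and 534 FPKM in Model and 0.275, 0.675 and 0.593 FPKM in Control libraries (log2 fold change against Model -0.83 ± 0.16 (SE), limma adjusted p = 0.0313), with a call that ended under 10 of 20.

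Among the kept genes, 3 that were called against Model are given with the levels of all groups. Since kept genes were chosen for lying near Control with AnxA5, their place between Model and Control is a description. Lgals3 was at 938, 1029.7 and 1021 FPKM in M+AnxA5, 709, 591 and 679 FPKM in Model and 1082, 905 and 1013 FPKM in Control libraries (log2 fold change against Model 0.597 ± 0.086 (SE), limma adjusted p = 0.00984), and the M+AnxA5 and Control libraries overlapped while all Model libraries were below both. Atp6v1g1, a pump subunit, was at 119.9, 118 and 121 FPKM in M+AnxA5, 98.7, 95.9 and 101 FPKM in Model and 138, 129 and 134 FPKM in Control libraries (log2 fold change against Model 0.28 ± 0.038 (SE), limma adjusted p = 0.00752). Ccl9, a CC chemokine kept from the resting state, was at 124, 124 and 126 FPKM in M+AnxA5, 159, 155 and 149.7 FPKM in Model and 135, 139.7 and 139 FPKM in Control libraries (log2 fold change against Model -0.31 ± 0.036 (SE), limma adjusted p = 0.0046), with Model above Control and M+AnxA5 below it. Sterol genes were higher than in Model in 9 of 23 cases and lower in none, and lysosomal pump and membrane genes in 8 of 24 cases and lower in none, beside the background of 1.95% higher. All lists were chosen with earlier results of these data known, so their counts against Model are a description. Idi1 was at 5.69, 5.74 and 5.55 FPKM in M+AnxA5, 3.49, 3.92 and 3.09 FPKM in Model and 27.05, 28.7 and 28.6 FPKM in Control libraries (log2 fold change against Model 0.57 ± 0.067 (SE), limma adjusted p = 0.0046), and Cyp51 at 7.11, 6.55 and 6.63 FPKM in M+AnxA5, 4.04, 4.49 and 5.16 FPKM in Model and 34.5, 33.9 and 36.3 FPKM in Control libraries (log2 fold change against Model 0.48 ± 0.074 (SE), limma adjusted p = 0.0109). Both stayed far below Control. The calls of Lgals3, Atp6v1g1, Ccl9, Idi1 and Cyp51 ended under 2, 2, 1, 1 and 3 of 20 settings. Each of these ended without the 3 libraries numbered 2, that of Lgals3 also without M+AnxA5 replicate 3, that of Atp6v1g1 without Model replicate 2, and that of Cyp51 without either of these libraries. Among TREM2 and lipid-associated genes 5 of 16 were higher than in Model, and among tetraspan, annexin and lipid carrier genes 6 of 16. Fabp3, a fatty acid carrier, was at 32.02, 42.5 and 37.4 FPKM in M+AnxA5, 21.6, 16.4 and 18.5 FPKM in Model and 3.16, 2.72 and 2.44 FPKM in Control libraries (log2 fold change against Model 0.95 ± 0.13 (SE), limma adjusted p = 0.00605), which placed M+AnxA5 farther from Control than Model, with a call that ended under 1 of 20 settings. Without M+AnxA5 replicate 3 the counts of higher genes were 5 for sterol synthesis, 2 for the pump and membrane list, 1 for the TREM2 list and 4 for the carrier list. Without Model replicate 2 they were 5, 1, 3 and 4, and without M+AnxA5 replicate 2 they were 7, 2, 3 and 4, while without the 3 libraries numbered 2 they were 0, 0, 0 and 1.

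Among lost genes, Nrm, an inner nuclear membrane protein, was at 0.818, 0.577 and 0.936 FPKM in M+AnxA5, 1.71, 2.24 and 1.57 FPKM in Model and 7.78, 7.77 and 7.69 FPKM in Control libraries (log2 fold change against Model -0.67 ± 0.102 (SE), limma adjusted p = 0.0109), and Prdm10, a zinc finger factor, was at 0.521, 0.558 and 0.452 FPKM in M+AnxA5, 0.9496, 0.985 and 0.985 FPKM in Model and 1.79, 1.55 and 1.98 FPKM in Control libraries (log2 fold change against Model -0.39 ± 0.069 (SE), limma adjusted p = 0.0205). Both were lower with AnxA5 than in Model, and the calls ended under 1 and 9 of the 19 settings that tested them.

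**Figure D5:**
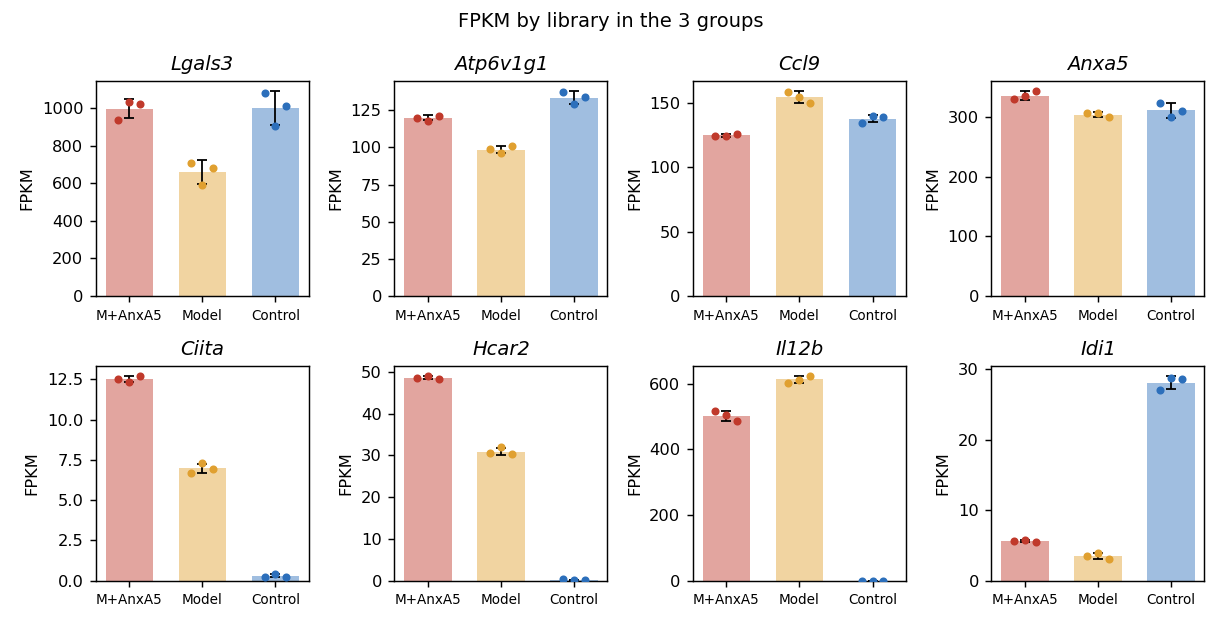
FPKM of 8 genes in the M+AnxA5, Model and Control groups, with bars for means, error bars for SDs over 3 libraries and points for single libraries. Lgals3 and Atp6v1g1 are lower in Model than in both other groups, Ccl9 is highest in Model, Ciita and Hcar2 are highest with AnxA5, Il12b is highest in Model, and Idi1 stays far below Control in both stimulated groups.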

How the data were processed

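RNA-seq of mouse BMDMs was analysed in 3 groups of 3 libraries (M+AnxA5, Model, Control), grouped by their labels. The authors deposited 1 table of FPKM values per gene and library, computed by a sequencing company. The build mm10 is named in the submitters' processing notes together with edgeR, DESeq2, STAR, cutadapt 1.9 and StringTie 2.1.6, whose roles are not given there. Library preparation used oligo(dT)-selected RNA and dUTP marking of the second strand. These steps were not repeated.

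The 11657 genes that reached 1 FPKM in 3 or more of the 9 libraries were fitted with limma 3.58.1 in R 4.3.3, with 3 group means and all 9 libraries in 1 fit, empirical Bayes with trend, on log2(FPKM + 1), and Benjamini-Hochberg adjustment over the genes tested. All fold changes are on that scale, which understates changes of low genes. DEGs had a fold over 1.2 and an adjusted p under 0.05, the thresholds of the study. Errors beside FPKM are SDs over 3 libraries. Between 20.4% and 23.1% of the low values of a library lay within 0.03 of a whole fragment, so no counts could be recovered and depth is an estimate. Of the gene IDs, 55154 were found in GENCODE M21. The fit was checked on simulated data.

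The members, the 44 lists and the named genes were chosen with earlier results of these data known. Genes were named by rank of fold change, level or p within each class and list, and the genes the study names were added. Plk1, Spi1, Tpx2, Ostf1 and Myo1c were chosen after their values were seen. Alternatives were another pseudocount, other filters, 3 other scalings, no trend, a fit of 6 libraries only, a replicate block, other thresholds and leaving out each library. Added after the data were seen were fits without the 3 libraries numbered 2 and a TPM scaling that omits Gm23935 and AY036118. Some genes that the rule named are not reported here.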

Additional observations from a re-analysis of the deposited data

How the results depend on the processing

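No called gene among the 238 named genes changed sign under any alternative run, and 5 calls against Control ended under quantile normalization and 1 under upper-quartile scaling, that of Tgfb1. Of the calls against Model, those of Nos2 and Il12b ended under quantile normalization and those of Nos2, Cfp, Marco, Atp6v0a1 and Pdcd1lg2 under TPM scaling. Kept genes such as Anxa5, Arpc2 and Unc93b1 changed sign with scaling. The count of 8974 DEGs was 4481 with a mean of at least 5 FPKM, where fewer genes were tested, and 2891 at a fold of 2. Quantile normalization gave 2808 genes higher and 4434 lower, the filter of 5 FPKM 3132 lower, and a fold of 2 gave 971 higher and 1920 lower. The 319 genes that differed between M+AnxA5 and Model were 158 with no filter on low values, 121 to 342 without single libraries and 11 without the 3 libraries numbered 2. Same-numbered libraries of M+AnxA5 and Control deviated together with correlations of only 0.016, 0.074 and 0.032, and not every library correlated best with its own number. Against Model every M+AnxA5 library did, at 0.12, 0.086 and 0.061, a hint from the data and not the design, with pairs under 0.1, so the numbers were not taken to pair the libraries. The replicate block gave 1866 genes higher and 7160 lower, 646 kept, and 185 that differed from Model. The 680 kept genes were 1182 under quantile normalization, 430 without the 3 libraries numbered 2 and 3233 within 1.5-fold. New genes were 509 and lost genes 1879 when 2 of 3 libraries sufficed. Under quantile normalization they were 563 and 530, so the new class was then the larger. The causes were not tested. Depth limits the classes near 1 FPKM and the kept calls of low genes.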
